A study of Mus musculus with 102 samples.

Results

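Broad H3K4me3 domains were taken as H3K4me3 peaks of at least 4000 bp that overlapped an H3K4me1 peak by 1 bp or more in R1 mouse embryonic stem (ES) cells. This rule selected 2841 of 34553 H3K4me3 peaks, which were 8.22% of the peaks and 23.3% of the length that the peaks covered. The width was reached by 2850 peaks, and the 9 of them without an H3K4me1 peak were left out. No fold enrichment entered the rule, although the calling of a peak and its width depend on the signal. The authors' table called 1978 of the domains proximal (69.6%) and 863 distal (30.4%), and no distance that separates these groups is given in the sources used here. The domains were compared with the 14539 narrower proximal H3K4me3 peaks, of which 13902 also overlapped an H3K4me1 peak.

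Methylation of histone H3 lysine 4 (H3K4) comes in 3 forms: H3K4me3 marks active and primed promoters, H3K4me1 marks enhancers and the flanks of promoters, and H3K4me2 occurs at both. MLL3 and MLL4 are methyltransferases known for H3K4me1 at enhancers, while SET1 and MLL1/2 complexes are the main writers of H3K4me3. Unusually wide H3K4me3 domains are known from genes that specify cell identity and, in ES cells, from regulators of development.

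The study profiled histone marks and chromatin proteins by chromatin immunoprecipitation with sequencing, in 102 libraries of mouse ES cells. R1 cells of strain 129SV were either wild-type or carried MLL3/4 double catalytic dead alleles (dCD cells), with 2 libraries per line for each of H3K4me1, H3K4me2 and H3K4me3. These R1 cells grew on embryonic fibroblast feeder cells with leukemia inhibitory factor, and the labels do not say how many clones the dCD line represents. A second set of tables lists 17 chromatin factors and H3K27ac by region without naming a line. They are read here as 129/Ola ES cells, the only strain whose labels give libraries for all 17 factors, and this reading is inferred.

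Each peak has 1 fold enrichment per line in the deposited tables, with no counts. The depth is therefore unknown, the spread between libraries cannot be given, and no difference between lines or peak sets below has a replicate check or a test. A peak is called increased or decreased in dCD cells when its ratio to wild-type is at least 2 or at most 0.5, a rule of size that matched the deposited class at every peak of the 3 tables. Intervals for shares are 95% Wilson intervals, which cover counting error only and treat peaks as independent. Fold enrichments were put back in chromosome order before use, an order that is inferred and that the sources used here do not state. On chromosomes 2 to 19 the mean Spearman correlation of wild-type H3K4me3 with H3K27ac of 129/Ola cells was then 0.14, against -0.0056 in the deposited layout (23838 peaks in all).

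The domains had a median width of 4986 bp (quartiles 4377 to 6060 bp), against 2140 bp for narrower proximal peaks. Distal domains were wider than proximal ones, with medians of 6292 and 4726 bp. The widest domain covered 48584 bp on chromosome 11, 96159789 to 96208372 (mm9, as are all positions here). Next came 28413 bp on chromosome 6, 52105726 to 52134138, and 22279 bp on chromosome 9, 114452306 to 114474584. The 5 widest domains were all called distal. At the limit of the rule, 2 domains of exactly 4000 bp had wild-type H3K4me3 fold enrichments of 10.5 and 15.5, and peaks of 3998 and 3999 bp that just missed it had 16.9 and 11.2.

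Domains lay on all autosomes and the X chromosome, where they were 7.27% to 9.73% of the H3K4me3 peaks. The median gap between consecutive domains was 289 kb, and 184 of 2821 gaps (6.52%) were under 10 kb. Another H3K4me3 peak lay within 1000 bp of 17.7% of domains and of 9.37% of narrower proximal peaks. Thus some domains stood next to further H3K4me3 peaks that the peak list keeps separate.

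H3K4me3 was nearly the same in both lines at the domains. The median fold enrichment was 14.02 in wild-type cells (quartiles 11.0 to 16.7) and 13.7 in dCD cells (10.5 to 16.7), and the median log2 ratio of dCD to wild-type was -0.044 (quartiles -0.19 to 0.11). Of the 2841 domains, 16 were called decreased (0.563%, interval 0.347 to 0.913) and 14 increased (0.493%, 0.294 to 0.826). Over all H3K4me3 peaks 4.48% were called decreased and 3.15% increased, so the calls at domains were fewer than in the table as a whole.

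Narrower proximal peaks had medians of 12.8 in both lines, a median log2 ratio of -0.011, and 1.73% decreased and 1.20% increased calls. Their share within 2-fold was 88.7% below 1000 bp and 96.4% at 1000 to 2000 bp. It was 99.0% at 2000 to 3000 bp and 99.5% at 3000 to 4000 bp. All domains had 98.9% and proximal domains 99.6%, so few calls were not particular to domains. When domains and narrower proximal peaks were held between the wild-type quartiles of the domains, 99.8% of 1421 domains and 99.9% of 5646 narrower peaks were within 2-fold. This comparison was added after the data were seen. The band leaves out every domain called increased, since their wild-type values reached 5.29 at most, and keeps 3 of those called decreased. The band therefore cannot show the part of level in the lower share of calls at domains. With all peaks, the share past 2-fold at domains minus that at narrower proximal peaks was -1.87 points (interval -2.30 to -1.36). A planned setting dropped the weakest 25% of peaks, ranked by their average enrichment in the 2 lines. The difference was then smaller, at -0.216 points (interval -0.568 to 0.243). Level was not held equal among the peaks that remained, and its part there was not tested. Within the band the median log2 ratio was -0.043 at domains and 0.010 at the narrower peaks. Without this limit the difference of the medians was -0.033 (interval -0.044 to -0.024, from the ranks of peaks taken as independent), so holding the level made it larger.

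Proximal domains carried more H3K4me3 than distal ones. The median at proximal domains was 14.8 in wild-type and 14.7 in dCD cells, against 11.6 and 11.0 at distal domains. The median log2 ratios were -0.033 and -0.086. Only 8 of the 1978 proximal domains passed 2-fold (3 decreased, 5 increased), while 22 of the 863 distal domains did (13 decreased, 9 increased).

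**Figure D1:**
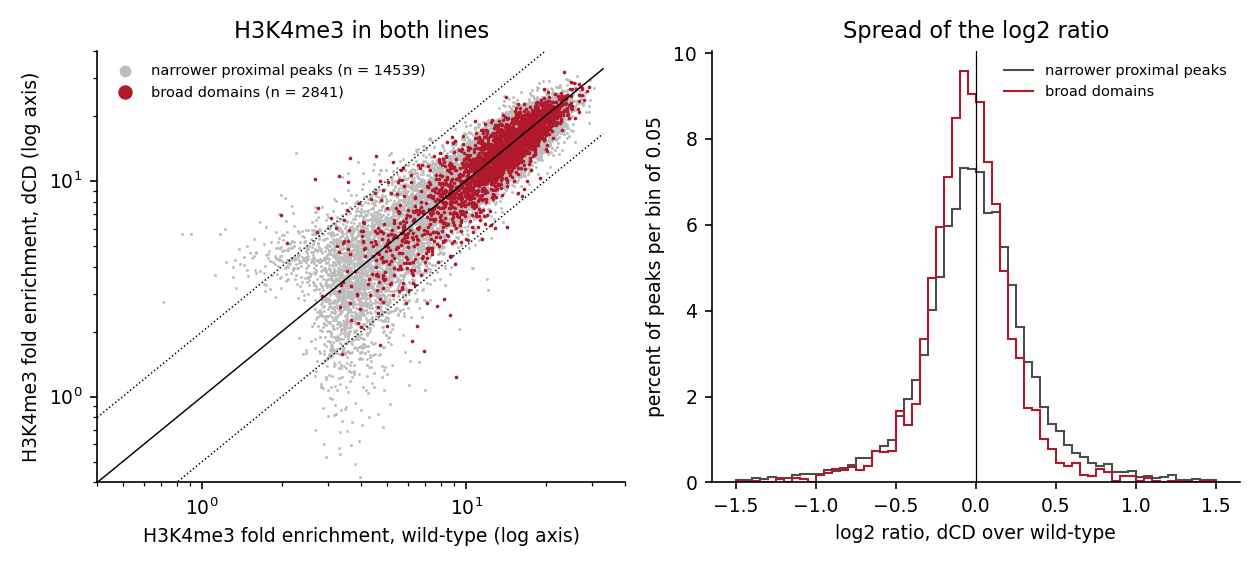
Left, H3K4me3 fold enrichment of each peak in wild-type (x) and dCD cells (y), both on log axes, with equality as a solid and 2-fold differences as dotted lines; right, percent of peaks per log2 ratio bin, for ratios from -1.5 to 1.5. Most of the 2841 domains (red) lie close to the solid line at high enrichment, and 30 of them lie past a dotted line.

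Across domains, wild-type and dCD H3K4me3 had a Spearman correlation of 0.88 (n = 2841). The highest wild-type values were found at proximal domains. The domain on chromosome 17, 4993199 to 4998216, had 29.2 in wild-type and 27.2 in dCD cells. On chromosome X, the domain at 17738361 to 17743221 had 28.7 and 26.0, and that at 91365454 to 91369889 had 27.8 and 23.6. The 5 domains with the highest wild-type values had log2 ratios of -0.24 to -0.043, and none was called. They were chosen by the wild-type value, so nothing is read from their shared direction.

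Above the median domain by the mean of both lines, none of the named extremes reached 2-fold. The largest rise in ratio was on chromosome 16, 44555579 to 44559683, with 10.8 in wild-type and 18.9 in dCD cells. It was followed by chromosome 14, 112073590 to 112077597, with 14.1 and 24.4, and chromosome 2, 160471047 to 160475515, with 11.8 and 18.2. H3K4me2 was also higher at these 3 domains, by log2 ratios of 0.87, 0.62 and 0.12. The lowest ratio was on chromosome 14, 51419177 to 51425180, with 19.0 in wild-type and 10.3 in dCD cells, and H3K4me1 there was higher in dCD cells, at 2.14 and 4.33. At chromosome 4, 123338926 to 123346208, H3K4me3 was 17.6 and 11.2 and H3K4me2 8.15 and 4.62.

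The domains called decreased had wild-type fold enrichments of 3.39 to 14.3 and dCD values of 1.23 to 6.13. The lowest ratio was at a distal domain on chromosome 3, 88370806 to 88375795, with 9.13 in wild-type and 1.23 in dCD cells, a log2 ratio of -2.89. It was followed by chromosome 7, 120401078 to 120406581, with 6.92 and 1.62. A pair of neighbouring decreased domains lay on chromosome 10, at 119597561 to 119601579 (7.75 and 2.63) and 119604413 to 119610089 (6.24 and 1.82). These 4 domains, and those named in the next paragraph, were chosen after their values were seen.

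The domains called increased all had low H3K4me3, 2.00 to 5.29 in wild-type cells, and had 5.14 to 13.1 in dCD cells. The highest ratio was at a distal domain on chromosome 9, 41134803 to 41138917, with 2.67 and 10.2, a log2 ratio of 1.93. The widest domain of all was among them, with 4.71 in wild-type and 9.94 in dCD cells, and so was the domain just before it on chromosome 11, 96152792 to 96158459, with 2.09 and 5.14. Another neighbouring pair lay on chromosome 9, at 91252714 to 91266616 (4.54 and 13.1) and 91271774 to 91280585 (5.29 and 12.2).

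H3K4me2 differed in the same direction as H3K4me3 at all 30 of these domains. It was lower at 16 of 16 decreased domains, with a median log2 ratio of -1.18 and a decreased H3K4me2 peak at 10 of them, and higher at 14 of 14 increased domains, with a median of 1.15 and an increased peak at 11. H3K4me1 was lower at 11 of the 16 decreased domains (median -0.40) and higher at all 14 increased domains (median 0.74). Over all 2841 domains the log2 ratio was above 0 at 66.1% for H3K4me2 (median 0.12) and at 91.7% for H3K4me1 (median 0.75). H3K4me1 at the increased domains was thus near the value of all domains. The labels give the same 2 input libraries for all marks of a line, and the part of a shared input in the common direction was not tested.

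H3K4me1 peaks most often lay at the edges of the domains. A domain overlapped 1.89 H3K4me1 peaks on average and 7 at most: 665 domains had 1 peak, 1868 had 2 and 273 had 3. At 1911 domains (67.3%) a separate H3K4me1 peak crossed each edge. A single peak covered 492 domains from end to end (17.3%), 390 had a peak across 1 edge only (13.7%), and 48 had peaks only inside (1.69%). At narrower proximal peaks with H3K4me1 a covering peak was more frequent, at 44.2%, and separate peaks at each edge were found at 39.1%. Peaks wholly inside were present at 19.3% of domains and 2.86% of narrower peaks. The sets differ in width by the rule, a wider peak is harder to cover and holds more, and the part of width in these shares was not tested.

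By the rule every domain has an H3K4me1 peak. An H3K4me1 peak was present at 91.5% of the edges of domains, at 95.2% of points 500 bp inside the edge and at 76.2% of points 2000 bp inside. At the midpoint 78.7% of domains were in an H3K4me1 peak, against 70.1% of the 8131 narrower proximal peaks of at least 2000 bp. Outside, more points near domains lay in an H3K4me1 peak of any kind: at 2000 bp from the edge 42.3% of points were in a peak against 21.4%, and at 5000 bp 34.4% against 19.4%. The overlapping peaks themselves reached a median of 736 bp beyond domains and 623 bp beyond all narrower proximal peaks. H3K4me2 did not dip inside the domains. It was present at 93.4% of their edges and 99.6% of points 2000 bp inside, then at 24.8% of points 2000 bp outside, where the value at narrower peaks was 10.6%.

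**Figure D2:**
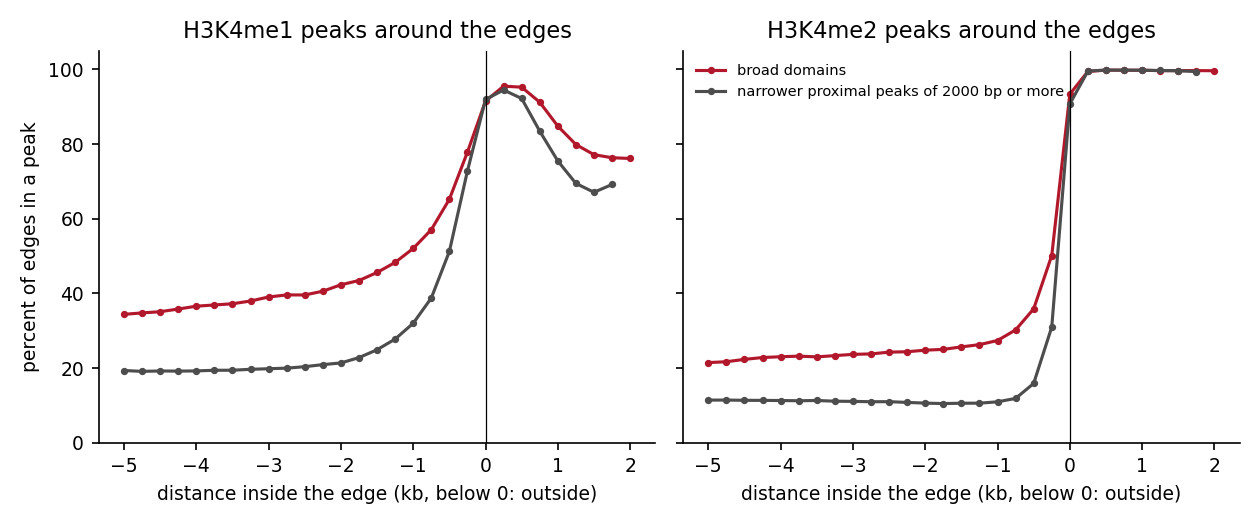
Percent of edges (2 per peak, y) that lie in an H3K4me1 peak (left) or an H3K4me2 peak (right) at each distance inside (above 0) or outside (below 0) the edge in kb (x), for domains and for narrower proximal peaks of at least 2000 bp. H3K4me1 is most frequent just inside the edge and at 76.2% of points 2 kb inside domains, while H3K4me2 stays near 100%, and points outside domains lie in a peak of either mark more often than those outside narrower peaks.

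H3K4me1 fold enrichment was higher in dCD than in wild-type cells at most domains. How the lines were scaled to each other is not given, so the values are relative. A gain in the amount of H3K4me1 here cannot be told apart from a loss at other peaks. The values of H3K4me2 and H3K4me3 are relative in the same way. Over 5370 overlaps of a domain with an H3K4me1 peak, the median fold enrichment was 2.81 in wild-type cells (quartiles 2.39 to 3.28) and 4.62 in dCD cells (3.87 to 5.39), a median log2 ratio of 0.79 (quartiles 0.41 to 1.07). Of these, 1664 were called increased (31.0%, interval 29.8 to 32.2) and 40 decreased (0.745%), against 15.2% increased and 28.4% decreased over all 82053 H3K4me1 peaks. The median log2 ratio over the peaks of a domain was above 0 at 2604 of 2841 domains (91.7%). The median over the whole table was -0.21, and relative to it the domains were higher by 0.996, with 2664 increased and 23 decreased calls. With a pseudocount of 1 there were 487 and 4. At 1254 domains (44.1%) at least 1 H3K4me1 peak was increased, at 419 (14.7%) all were, and at 35 (1.23%) at least 1 was decreased.

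Narrower proximal peaks had a lower wild-type H3K4me1 median, 2.59, nearly the same dCD median, 4.63, and more increased calls, 42.4% of 19621 overlaps. The difference of -11.4 percentage points was -3.33 when the H3K4me1 peaks of both sets were held between the wild-type quartiles of those on domains, a setting added after the data were seen. Within the domains, distal ones had a smaller median log2 ratio, 0.64 with 22.9% increased, than proximal ones, 0.84 with 34.6% increased. Wild-type H3K4me1 was higher at distal domains (2.95 against 2.75) and dCD H3K4me1 lower (4.35 against 4.72).

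The lines differed least where 1 H3K4me1 peak spanned the whole domain. Covering peaks had a median of 3.36 in wild-type and 4.69 in dCD cells, and 12.8% were increased. Peaks across 1 edge had 2.79 and 4.66, and 31.3% were increased. Peaks wholly inside had 2.51 and 4.30, and 42.6% were increased (interval 38.9 to 46.4). The order over the 3 places was therefore steep in wild-type cells and nearly flat in dCD cells. Narrower proximal peaks gave the same order, with 25.2%, 50.1% and 55.2% increased.

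**Figure D3:**
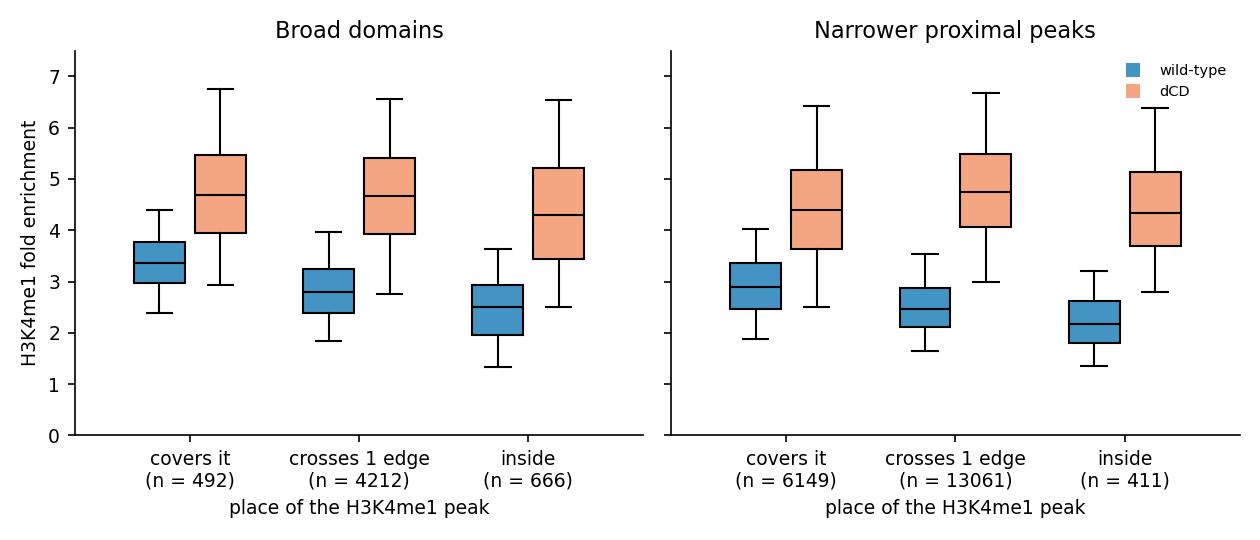
H3K4me1 fold enrichment (y) of peaks that cover the H3K4me3 peak, cross 1 of its edges or lie inside it (x), in wild-type and dCD cells, for domains (left) and narrower proximal peaks (right); boxes span the quartiles around the median and whiskers the 5th to 95th percentiles of peaks. At domains the wild-type medians are 3.36, 2.79 and 2.51 over the places, while the dCD medians lie between 4.30 and 4.69.

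Domains also differed in H3K4me3 by this arrangement. Those with a separate H3K4me1 peak at each edge had a median wild-type H3K4me3 fold enrichment of 15.0 and 74.6% were proximal. Domains under 1 covering H3K4me1 peak had 10.2 and 61.0% proximal. The H3K4me3 log2 ratio was close to 0 in both, at -0.045 and -0.0039.

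The largest rises of H3K4me1 were taken among domains with a mean H3K4me1 above the median domain. They were at domains not called in H3K4me3, as were 98.9% of all domains. On chromosome 10, 20877835 to 20881962, H3K4me1 was 2.13 in wild-type and 7.36 in dCD cells, and H3K4me3 19.1 and 19.0. At chromosome 5, 138224058 to 138229517, H3K4me1 was 2.13 and 6.03, and H3K4me3 12.9 and 12.6. The third, on chromosome 1, 145546842 to 145551087, had H3K4me1 of 1.98 and 5.98 and H3K4me3 of 18.5 and 20.7. Within the same limit on the mean, differences in the other direction were smaller. H3K4me1 was 5.01 in wild-type and 3.18 in dCD cells on chromosome 4, 139151942 to 139156182, 4.90 and 3.40 on chromosome 15, 103167372 to 103171559, and 4.71 and 3.38 on chromosome 5, 33874813 to 33880232. None of these 3 domains passed 2-fold in H3K4me1. A fall within this limit has a high wild-type value by the choice, and larger falls lay below the limit. One was at the domain on chromosome 10, 119604413 to 119610089, with H3K4me1 of 2.95 and 1.22.

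H3K4me2 peaks covered more of the length of the domains than H3K4me1 peaks. All 2841 overlapped an H3K4me2 peak, 80.2% lay wholly within H3K4me2 peaks, and the mean was 1.08 peaks per domain. The median fold enrichment over 3067 overlaps was 9.12 in wild-type and 9.99 in dCD cells, a median log2 ratio of 0.12 (quartiles -0.090 to 0.28). Of these overlaps 57 were called decreased (1.86%, interval 1.44 to 2.40) and 20 increased (0.652%), against 23.0% and 1.91% over all H3K4me2 peaks. The median over that table was -0.13, and relative to it the domains were higher by 0.24, with 37 decreased and 29 increased calls. Narrower proximal peaks had 8.76 and 10.3, a median log2 ratio of 0.21, and 2.34% decreased and 1.33% increased.

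Proximal and distal domains differed in H3K4me2. At proximal domains the median was 9.28 in wild-type and 10.4 in dCD cells, and 0.326% of overlaps were decreased (interval 0.158 to 0.671). At distal domains it was 8.73 and 8.82, and 5.44% were decreased (4.15 to 7.10). Of the 57 decreased overlaps, 50 were at distal domains.

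Across the 2841 domains the log2 ratios of H3K4me2 correlated with those of H3K4me1 and of H3K4me3 about equally (Spearman's rho 0.64 for both), while rho between H3K4me1 and H3K4me3 was 0.18. At 13899 narrower proximal peaks these values were 0.65, 0.66 and 0.26. The points share the libraries of each line, so the correlations are a description.

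The widest domains had lower H3K4me3 than the narrowest. The median wild-type fold enrichment was 14.4 at the 1431 domains of 4000 to 5000 bp and 11.4 at the 92 domains of 10000 bp or more, and in dCD cells it was 14.2 and 11.5. The proximal share was 84.6% and 15.2% in these classes. Within distal domains alone, width and wild-type H3K4me3 had a Spearman correlation of 0.28 (n = 863), within proximal domains -0.070 (n = 1978), and over all domains -0.10. The lower level of the widest domains was thus not seen within the distal group, which held most of them.

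H3K4me1 and H3K4me2 in wild-type cells varied little with width, while their log2 ratios were smaller at wider domains. H3K4me1 had a median log2 ratio of 0.83 with 34.1% increased at 4000 to 5000 bp, and 0.70 with 23.1% increased at 10000 bp or more. For H3K4me2 the values were 0.14 and -0.027, and relative to the table median of -0.13 both were above 0. Domains of 10000 bp or more had 2.59 H3K4me1 peaks on average, against 1.77 at 4000 to 5000 bp. The wider classes also held a smaller share of proximal domains, and distal domains had smaller log2 ratios than proximal ones. These were 0.64 against 0.84 for H3K4me1 and -0.020 against 0.15 for H3K4me2. The part of this mix in the smaller ratios of wider domains was not tested.

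**Figure D4:**
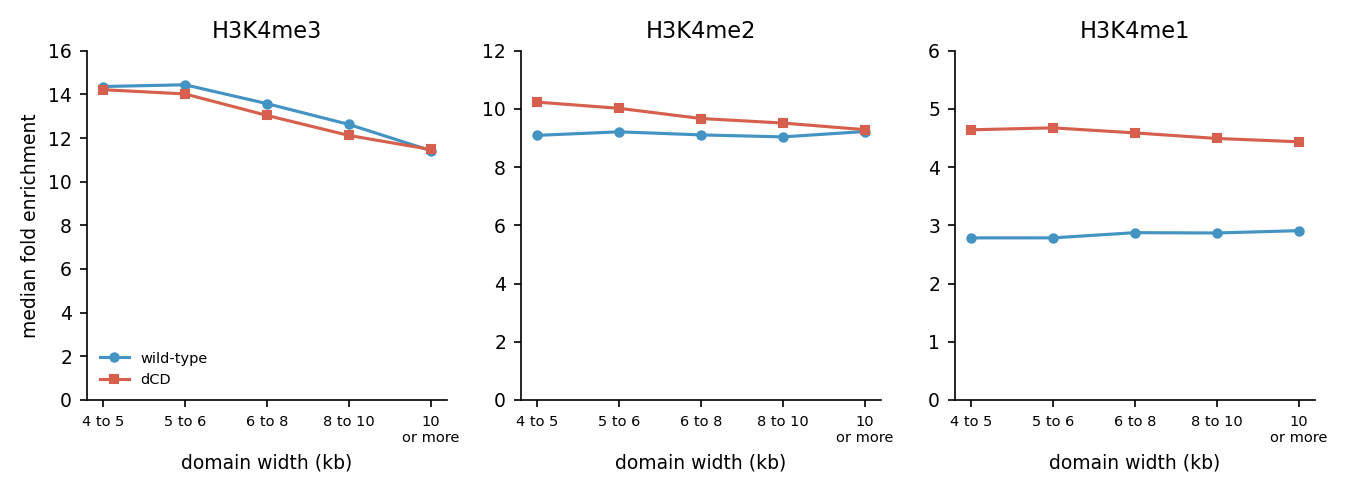
Median fold enrichment (y) of H3K4me3 at domains and of the H3K4me2 and H3K4me1 peaks on them, by domain width in kb (x), in wild-type and dCD cells; 1431, 663, 512, 143 and 92 domains from left to right. H3K4me3 is lower in the classes from 6 kb than in the first in both lines, the lines come closer for H3K4me2, and H3K4me1 stays higher in dCD cells in every class.

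The 5 widest domains did not share a direction. At the chromosome 11 domain H3K4me3 was 4.71 in wild-type and 9.94 in dCD cells, and at the chromosome 6 domain 9.66 and 14.1. The chromosome 9 domain had 12.02 and 11.4. The remaining ones were lower in dCD cells, with 10.9 and 7.63 on chromosome 2, 162876095 to 162894655, and 9.57 and 5.85 on chromosome 12, 87807345 to 87825424. H3K4me1 was higher in dCD cells at all 5, by log2 ratios of 0.082 to 0.75.

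In 129/Ola cells, 2810 of the domains (98.9%) overlapped a listed region with H3K4me1 or H3K4me3. At the region with the largest overlap, both marks were present for 48.6% of these domains, H3K4me3 without H3K4me1 for 44.7% and H3K4me1 without H3K4me3 for 6.65%. More than 1 region was met by 778 domains (27.7%) but by 1.55% of the 13455 narrower proximal peaks with a region. Where that region carried H3K4me3, it was itself 4000 bp or wider for 1160 of 2623 domains (44.2%), and its width had a Spearman correlation of 0.20 with that of the domain.

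H3K27ac, a mark of active promoters and enhancers, was listed at 96.7% of domains with a region, against 88.8% of narrower proximal peaks. Where listed, its median log2 enrichment was 2.00 (quartiles 1.44 to 2.53) at domains and 1.37 (1.10 to 1.82) at narrower peaks. Each value is the highest over the regions that a peak met. With only the region of the largest overlap the medians were 1.97 and 1.37. By width, the median of the highest values was 1.92 at domains of 4000 to 5000 bp and 2.38 at those of 10000 bp or more. The part of the number of regions in this trend was not tested. It was 2.07 at domains with a separate H3K4me1 peak across each edge and 1.55 at those under a covering peak.

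Among the 17 factors, the largest difference between domains and narrower peaks was that of cohesin. SMC3, a subunit of the cohesin ring that holds chromatin loops, was listed at 73.0% of domains and 54.8% of narrower proximal peaks, a difference of 18.2 percentage points. It was listed at 71.0% of proximal and 77.7% of distal domains, and at 67.1%, 72.8%, 80.8%, 91.4% and 93.5% of domains from the narrowest to the widest class. A wide domain meets more regions, and the part of this in the trend was not tested. With only the region of the largest overlap, the shares of SMC3 were 70.4% and 54.6%, and against the 5612 narrower peaks with a region and with wild-type H3K4me3 between the quartiles of the domains it was 73.0% and 56.0%.

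Mediator links enhancer-bound factors to RNA polymerase II. Its subunit MED12 was listed at 43.5% of domains and 34.7% of narrower peaks, and MED1 at 60.7% and 55.6%. SUR2, a further Mediator subunit, was listed at 51.3% of both. The ATPases RUVBL2 and RUVBL1, shared by several remodelling complexes, were listed at 84.6% and 65.4% of domains against 76.9% and 60.6%. Narrower peaks of the same H3K4me3 level had 82.8% and 64.9%, so these differences shrank to 1.80 and 0.53 points, while MED12 was still 7.90 points higher at domains.

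Several chromatin remodellers were listed less often at domains. BAZ1A, a partner of the ISWI ATPase SNF2H, was listed at 17.8% of domains and 27.04% of narrower peaks, and SNF2H itself at 57.3% and 60.1%. BRG1, the ATPase of the BAF complex, was listed at 19.1% and 24.0%. The BAF subunit BAF155 was at 60.3% and 55.9%, a difference of 4.43 points that was 0.91 against narrower peaks of the same H3K4me3 level. In a setting added after the data were seen, both sets were limited to those whose region of largest overlap spanned 2000 to 4000 bp. Here 16 of the 17 factors were listed more often at domains and 9 kept the direction they have without this limit. Factors were still counted from every overlapping region, and the part of further regions in these shares was not tested. Under this limit BAZ1A was at 23.5% and 17.1%, BRG1 at 25.4% and 15.3%, and SNF2H at 61.3% and 55.1%. PHF5A (26.5% and 16.2%), SRSF1 (70.8% and 58.5%), WSTF (11.2% and 6.52%), PHRF1 (50.5% and 49.6%) and SUR2 (52.0% and 48.2%) turned as well. The direction for these 8 factors is therefore not fixed, whereas SMC3 was higher at domains in this setting too, at 77.1% and 52.5%.

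Differences of the remaining factors were between -4.30 and 3.07 points. The splicing factors SRSF2 and SRSF1 were listed at 78.9% and 61.7% of domains against 77.1% and 62.3%, SAP18 at 80.8% against 77.7%, and the FACT histone chaperone component SSRP1 at 52.2% against 52.6%. PHRF1 was at 50.0% and 54.3%, PHF5A at 20.9% and 22.4% and WSTF at 9.54% and 10.4%. Against narrower peaks of the same H3K4me3 level 14 of the 17 factors kept their direction, and SAP18, SSRP1 and SUR2 did not. Domains had 8.87 of the 17 factors on average and narrower peaks 8.58, and with only the region of the largest overlap the means were 8.33 and 8.55, so the direction of this small difference was not fixed. Domains of 10000 bp or more had 11.5 factors over all the regions they met, and the part of the number of regions in this was not tested.

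**Figure D5:**
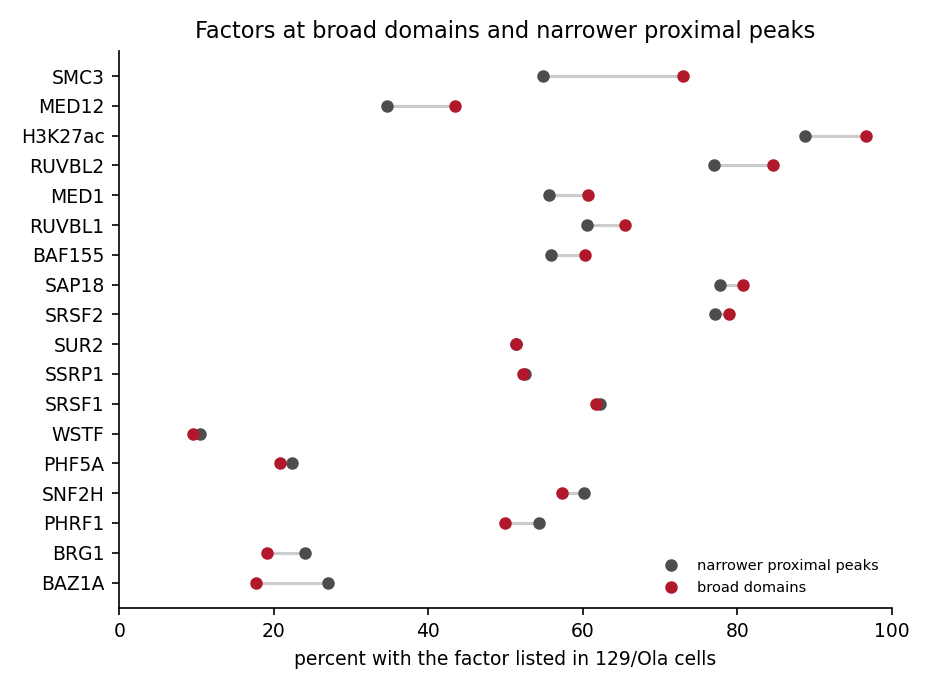
Percent of domains (n = 2810) and of narrower proximal peaks (n = 13455) at which each factor or H3K27ac was listed in 129/Ola cells (x), ordered by the difference (y). SMC3 shows the largest difference, 73.0% against 54.8%, and BAZ1A the largest in the other direction, 17.8% against 27.04%.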

How the data were processed

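For each H3K4 mark of the R1 lines the authors deposited a table of peaks with positions, a group (distal or proximal), a change class and fold enrichments (a ratio, FE per the file headers) in wild-type and dCD cells, 1 value per line. They also deposited region tables, read here as 129/Ola, with log2 enrichments per factor, listed from 0.585 upwards (a fold of 1.5), in which H3K4me1 and H3K4me3 served as presence only and 11 names matching no 129/Ola library were not used. Per the submitters' processing notes the build was mm9, and the notes name MACS2 2.1.0.20150731, deepTools 2.5.1 and 2.5.3, Picard 2.11.0 and BWA 0.7.13-r1126 for the 28 R1 libraries. The sources used here do not give the denominator of the enrichment, how peaks were called or whether replicates were pooled.

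Score blocks appear to follow number order of the chromosomes while rows follow text order, and scores were moved back to their chromosomes. The submitters do not state this order. It is inferred from the match with other marks, and over all chromosomes the sign of the H3K4me1 and H3K4me2 results depends on it. On chromosomes 1, X and Y both orders coincide, so values there need no move. The median log2 ratio on these was 0.87 for H3K4me1 (interval 0.82 to 0.91) and 0.15 for H3K4me2 (0.072 to 0.20). These intervals are from the ranks of peaks taken as independent. Log2 ratios had no pseudocount, and for 2 H3K4me2 peaks with a value of 0 the smallest positive value divided by 2 was used instead. Peaks and regions were matched at 1 bp by an interval search in Python. A factor counted as present when listed in any overlapping region, and the H3K27ac value was the highest over these regions. Python 3.11.15, pandas 2.3.3 and scipy 1.17.1 were used, and the reordering, calls and overlaps were tested on simulated data.

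Domains were named by rule: the 5 widest, the 5 highest in wild-type H3K4me3, and the 3 largest rises and 3 largest falls of H3K4me3 and of H3K4me1 above the median level. The domains, the factor groups and the comparisons were chosen with earlier results of these data known. No gene names or sequences are given because no annotation of the build was used here. Groups hold 2 libraries per mark in R1 cells and 1 to 3 per factor in 129/Ola cells, and the labels do not say whether these were separate cultures.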

Additional observations from a re-analysis of the deposited data

How the results depend on the processing

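No replicate was left out, since each line has 1 value. No paired analysis was possible because the deposited values are 1 per line and carry no replicate number.

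The deposited layout of the scores pairs most peaks with values of other chromosomes. In it the median log2 ratio was -0.096 for H3K4me1 and -0.094 for H3K4me2, and for H3K4me3 -0.027 with 7.46% of domains past 2-fold. Differences from narrower peaks were then 0.0038 in the H3K4me3 log2 ratio, 0.034 points past 2-fold, -1.91 points in increased H3K4me1 and 0.654 points in decreased H3K4me2, the last -0.479 as reported and 0.0926 with 50% of a peak inside.

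The H3K4me1 log2 ratio, 0.79, was 0.996 after centring each table on its median, 0.61 with a pseudocount of 1, 0.87 on chromosomes 1, X and Y, 0.85 with 50% of a peak inside, and 0.84 and 0.75 for domains from 3000 and 5000 bp. The H3K4me1 increase difference, -11.4 points, was -6.75 with the pseudocount, -18.0 on those chromosomes, -13.6 with 50% inside, -6.97 and -13.6 by width, and -3.33 between wild-type quartiles. H3K4me2, 0.12, was 0.24 centred, 0.15 on those chromosomes, and 0.15 and 0.081 by width.

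H3K4me3, -0.044, was -0.011 centred and -0.033 at proximal domains. Its difference from narrower peaks, -0.033, was -0.073 on those chromosomes and -0.022 at proximal domains. Domains past 2-fold, 1.06%, were 0.404% at proximal domains and 0.634% with the pseudocount. Their difference, -1.87 points, was -2.53 and -0.611 in these settings, -0.216 without the lowest 25% of peaks, and 0.0871 between wild-type quartiles.

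The factor mean, 8.87, was 8.33 by largest overlap, 3.43 at a log2 of 1 or more, 8.52 and 9.21 by width, and 9.67 in regions of 2000 to 4000 bp. Its difference, 0.293, was then -0.219, -0.512, -0.0729 from 3000 bp, and 1.66. SMC3 stayed higher at domains in all 7 alternatives, by 7.37 to 24.6 points, and H3K27ac by 0.48 to 0.70 in log2. The cause of these moves was not tested.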

Other observations

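The domains were also divided by the marks of their 129/Ola region. The 1256 domains on regions with H3K4me3 only had the highest wild-type H3K4me3 in R1 cells, a median fold enrichment of 15.7, and 80.9% of them had a separate H3K4me1 peak across each edge. Their H3K4me1 was 2.55 in wild-type and 4.63 in dCD cells, and 41.8% of overlaps were called increased. At the 1367 domains on regions with both marks H3K4me3 was 13.1, H3K4me1 was 3.10 and 4.79, and 22.5% were increased. The 187 domains on regions with H3K4me1 only had a median H3K4me3 of 5.82 in wild-type and 5.25 in dCD cells, were 25.7% proximal, and had H3K4me1 of 3.31 and 3.48 with 7.94% increased.

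H3K27ac was not listed at 93 domains with a region. They carried 3.99 factors on average, against 9.04 at the 2717 domains with H3K27ac, and less wild-type H3K4me3 (9.55 against 14.2). The median log2 ratio between the lines was -0.0024 without and -0.045 with listed H3K27ac for H3K4me3, and 0.85 and 0.79 for H3K4me1.

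Regions that the authors listed as active enhancers in 129/Ola cells were overlapped by 260 domains (9.15%) and regions listed as poised by 261 (9.19%). For narrower proximal peaks these shares were 2.92% and 2.62%. A domain is wider than a narrower peak and meets more regions of every kind. Of the domains 30.4% were distal, while these narrower peaks were all proximal. The parts of width and of this mix in these shares were not tested.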
